A study of Rattus norvegicus with 13 samples.

Results

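Voltage-gated sodium, calcium and HCN channel genes were followed in rat frontal cortex 1 month after experimental head trauma. Members were all genes whose array name begins with Scn, Cacna, Cacnb, Cacng or Hcn and a digit. The array carried 44 such genes on 56 probes, and 36 genes on 45 probes were kept because a probe was well above background on all arrays of at least 1 group. These 36 genes were read among 17251 genes tested, each by its probe of highest mean signal. Since a gene bright in a single group could pass this filter, the 36 are the genes measured, not all members.

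The animals were male Sprague-Dawley rats of otherwise unspecified genotype and age, and total RNA came from frontal cortex. In rotational trauma (3 arrays) the head is rapidly accelerated in rotation, and in percussion trauma (3 arrays), named lateral fluid percussion in the labels, a fluid pulse strikes the exposed dura. Each model had a sham group that was anaesthetised and operated on without trauma, with 3 rotational sham and 4 percussion sham arrays. The labels do not say whether each array is a separate animal, so p-values measure only the spread between these samples, which may be technical.

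Sodium channels open on depolarisation and carry the upstroke of the action potential. Their pore is a single large alpha subunit, and beta subunits set its gating, surface level and adhesion. Calcium channels turn depolarisation into calcium entry, which drives transmitter release, dendritic signalling and gene transcription. Their pore subunits (Cacna1 genes) join alpha2delta subunits (Cacna2d), which aid trafficking to the membrane, and intracellular beta subunits (Cacnb). Several gamma subunits (Cacng) serve mainly as auxiliary subunits of AMPA-type glutamate receptors. HCN channels open on hyperpolarisation, are modulated by cyclic AMP and set resting excitability and dendritic integration.

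Values are scaled log2 signals: the log2 intensity minus the array's 75th percentile, so a value of 0 lies at that percentile and a difference of 1 is a doubling. Groups were compared only within a probe. Mean levels of different probes served only to pick the brightest probe of a gene and to split genes by brightness. Each model filled a slide of its own, and a slide difference cannot be told apart from a model difference. Within a slide, trauma and sham occupied separate columns, so column and trauma cannot be told apart either. Rotational sham and percussion trauma arrays (column 1) had 72.73% to 74.12% of spots above background, and the other arrays (column 2) had 67.05% to 72.52%. The 10 general neuronal markers were above background on all 13 arrays. The 10 meningeal and matrix markers had higher means after trauma in both models (median log2 differences 1.14 rotational and 1.29 percussion). Their mean centred signal ran from -1.01 to -0.18 on rotational sham, 0.06 to 1.08 on rotational trauma, -1.12 to -0.15 on percussion sham and 0.19 to 1.51 on percussion trauma arrays. The part of this in the channel values was not tested. Markers of striatum were high on rotational sham arrays 1 and 3, and their values are given beside Scn4b. In bulk tissue, fewer cells of a type and less RNA per cell cannot be told apart.

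No channel gene passed the test in either model. With limma and Benjamini-Hochberg adjustment over all genes at 0.05, 0 of 36 were called after rotational trauma, where 0.0116% of all genes were, and the smallest member adjusted p was 0.544 (Scn3a). After percussion trauma 0 of 36 were called against 0.0% of all genes, with a smallest adjusted p of 0.327 (Scn1a). At an unadjusted p under 0.05 there were 2 channel genes after rotational trauma (7.0% of all genes passed) and 4 after percussion trauma (11.5% of all genes). All 6 of these values were lower in trauma: Scn3a and Cacna1d in the rotational model, and Scn1a, Scn4b, Cacnb3 and Cacng2 in the percussion model. Over all genes, those past that limit were 741 lower and 466 higher after rotational trauma, and 493 lower and 1499 higher after percussion trauma.

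The means of the channel genes leaned lower after rotational trauma. In that model 28 of 36 means were lower, with a median log2 difference of -0.09, while 61.9% of all genes were lower with a median of -0.03. With an array of that model left out the count ran from 25 without trauma array 3, where the median was -0.06, to 29 without sham array 3, and it was 28 without sham array 1. After percussion trauma 19 of 36 were lower (median -0.01), while 43.1% of all genes were lower (median 0.03). Without percussion trauma array 3 the count was 25 and the median -0.05. In both models 15 channel genes (41.7%) were lower, against 26.7% of all genes, and 13 (36.1%) were lower after rotational and higher after percussion trauma, against 35.2% of all genes. Scn11a and Cacna2d2 passed the filter only through the rotational sham arrays, which by itself favours a lower rotational mean. Among the 33 channel genes above background on all arrays, 25 means were lower after rotational trauma (median -0.09) and 17 after percussion trauma (median -0.01). The medians over all genes with that filter were -0.03 and 0.02. These counts describe the list and carry no test.

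Intervals of the channel differences are given for the probe read, from the spread between these arrays, and need not hold for another probe of the gene. The other kept probe of Cacna1c differed by 0.32 and 0.33 after rotational and percussion trauma. Both lay outside the intervals of its brightest probe (-0.29 to 0.17 and -0.22 to 0.21). The other kept probe of Cacna1g, at 0.07 and 0.14, lay inside both intervals of its brightest probe. The 95% interval of the difference lay within 0.5 on the log2 scale (1.41-fold) for 23 of 36 genes in each model. It lay within a 2-fold change for 33 of 36 in each model. The widest intervals belonged to Cacng6, a gamma subunit close to background: its rotational difference of -0.62 had an interval from -2.05 to 0.82, and its percussion difference of -0.49 had an interval from -1.83 to 0.85. The narrowest standard error was that of Scn3a after percussion trauma, 0.06.

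In 4 channel genes every rotational trauma array lay below every rotational sham array, namely Scn3a, Cacna1d, Cacng3 and Cacng4. Across all genes 11.3% did so, close to the share among the channel genes, and 0 channel genes had the opposite order, which 4.52% of all genes had. The probes that read these 4 genes are shown to identify what was measured, and none of the 4 genes has another kept probe. Each is a 60-base oligonucleotide from the array files, 5′ to 3′, placed by those files on rn4, and each leaves at least 1 of its forward frames free of stop codons. No annotation of rn4 was used here, so exons were not assigned.
Scn3a, chr3:47496786-47496845, minus strand: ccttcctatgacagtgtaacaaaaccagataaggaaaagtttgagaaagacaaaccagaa
Cacna1d, chr16:5384279-5384338, minus strand: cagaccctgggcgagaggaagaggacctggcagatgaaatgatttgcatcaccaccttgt
Cacng3, chr1:181594005-181594064, plus strand: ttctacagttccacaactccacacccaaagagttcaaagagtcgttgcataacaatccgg
Cacng4, chr10:97139407-97139466, minus strand: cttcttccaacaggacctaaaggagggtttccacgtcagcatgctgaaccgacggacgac
The Scn3a probe was the poorest of the 4 in G and C (36.7%), and the Cacng4 probe the richest (55.0%).

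Scn3a encodes Nav1.3, a pore subunit best known from the embryonic and newborn brain. Its scaled log2 signal was -0.83, -0.81 and -0.90 on the 3 rotational sham arrays and -1.01, -1.03 and -1.13 on the 3 rotational trauma arrays. It was -1.24, -1.18, -1.11 and -1.08 on the percussion sham arrays and -1.16, -1.16 and -1.06 on the percussion trauma arrays. The rotational groups were separate, whereas the percussion trauma arrays lay inside or just above the range of their sham. The log2 difference was -0.21 (SE 0.07) in the rotational model and 0.03 (SE 0.06) in the percussion model. Its adjusted p in limma was 0.544 and 0.899. The difference between the models was -0.24 (SE 0.09), the smallest p of any channel gene for that comparison (limma adjusted p = 0.455).

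The other sodium channel pore subunits of the brain are Scn1a (Nav1.1, prominent in inhibitory interneurons), Scn2a1, whose current symbol is Scn2a (Nav1.2, of unmyelinated axons and initial segments), and Scn8a (Nav1.6, of mature initial segments and nodes). Scn1a read 0.57, 0.81 and 0.83 on rotational sham and 0.48, 0.94 and 0.53 on rotational trauma arrays. In the percussion model it read 0.74, 0.92, 0.96 and 0.89 in sham and 0.42, 0.48 and 0.70 in trauma. Only the percussion groups were separate, by a narrow gap between the lowest sham and the highest trauma array. The log2 difference was -0.34 (SE 0.12, limma adjusted p = 0.327) after percussion and -0.08 (SE 0.13) after rotational trauma, and the difference between models did not pass (limma adjusted p = 0.709).

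Scn2a1 showed the same order of groups at a smaller size. It read 2.57, 2.60, 2.54 and 2.50 on percussion sham and 2.36, 2.39 and 2.50 on percussion trauma arrays, so the highest trauma array lay just under the lowest sham. In the rotational model the values overlapped, with 2.39, 2.61 and 2.45 in sham and 2.39, 2.59 and 2.41 in trauma. The log2 differences were -0.14 (SE 0.07, limma adjusted p = 0.504) and -0.02 (SE 0.08). Scn8a differed by -0.11 (SE 0.14) after rotational and -0.01 (SE 0.13) after percussion trauma. Scn11a, a pore of sensory neurons, was also kept, but it was above background on 0 of the 4 percussion sham arrays and gave no percussion fold. Its rotational difference was -0.29 (SE 0.24). Scn4a, Scn7a, Scn9a and Scn10a, best known from muscle and the peripheral nervous system, had no kept probe.

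Interneuron markers are the relevant neighbours of Scn1a. All 7 were above background on all arrays. Lower means were found in 5 of 7 after percussion (43.1% of all genes) and 6 of 7 after rotational trauma (61.9% of all genes). By limma 0 were called in either model. At an unadjusted p under 0.05, 1, Npy, was lower after percussion trauma, a limit that 11.5% of all genes passed. The 2 interneuron markers of smallest percussion p were Pvalb, the calcium buffer of fast-spiking interneurons, and Npy, a neuropeptide. Pvalb differed by -0.28 (SE 0.14) after percussion and -0.09 (SE 0.15) after rotational trauma, and Npy by -0.27 (SE 0.07) and 0.07 (SE 0.08). After percussion trauma Gad1 differed by 0.09 (SE 0.13), Slc32a1 by 0.09 (SE 0.09) and Gad2 by -0.02 (SE 0.12). Sst differed by -0.17 (SE 0.12) and Vip by -0.07 (SE 0.13) in that model. The mean centred signal of the 7 ran from 0.01 to 0.08 on percussion sham and from -0.11 to 0.07 on percussion trauma arrays. Their part in the Scn1a value was not tested.

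Among the sodium channel beta subunits, Scn4b, which supports resurgent sodium current and is abundant in striatum, had the smallest p of the channel genes for the mean of both models. It read 2.20, 1.69 and 2.24 on rotational sham and 1.69, 2.08 and 1.66 on rotational trauma arrays. The percussion arrays gave 1.46, 1.66, 1.83 and 1.65 in sham and 0.90, 1.42 and 1.32 in trauma. The percussion groups were separate and the rotational groups overlapped. The log2 difference was -0.44 (SE 0.17, limma adjusted p = 0.363) after percussion and -0.23 (SE 0.18, limma adjusted p = 0.891) after rotational trauma. The mean of both was -0.34 (SE 0.12, limma adjusted p = 0.446). Scn2b and Scn3b, also beta subunits, had rotational differences of 0.31 (SE 0.38) and 0.04 (SE 0.08). Their percussion differences were 0.23 (SE 0.36) and -0.03 (SE 0.07).

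Scn4b was read beside striatal markers, since the striatum lies beneath the frontal cortex. Of 9 such markers 8 were kept, all above background on every array. After rotational trauma 8 of 8 had lower means (median -0.46), beside 61.9% of all genes. After percussion trauma 6 of 8 did (median -0.07), beside 43.1% of all genes. The mean centred signal of the 8 markers was 1.40, -0.26 and 1.06 on rotational sham and 0.34, -0.30 and 0.38 on rotational trauma arrays. Rotational sham arrays 1 and 3 thus stood apart from the other 11 arrays, and both were also the highest for Scn4b. Rotational trauma array 2 came next for Scn4b, at 2.08, with a striatal signal of -0.30. Rotational trauma arrays 1 and 3, with higher striatal signals, read 1.69 and 1.66 for Scn4b. On percussion sham arrays the striatal signal ran from -0.40 to -0.31 and on percussion trauma arrays from -0.47 to -0.31, so the percussion groups overlapped where Scn4b did not. The part of striatal RNA in the Scn4b values was not tested. The rotational difference of Scn4b was -0.15, -0.41 and -0.14 without rotational sham array 1, 2 or 3, and -0.17, -0.37 and -0.16 without rotational trauma array 1, 2 or 3. The percussion difference was -0.28 without percussion trauma array 1.

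**Figure D1:**
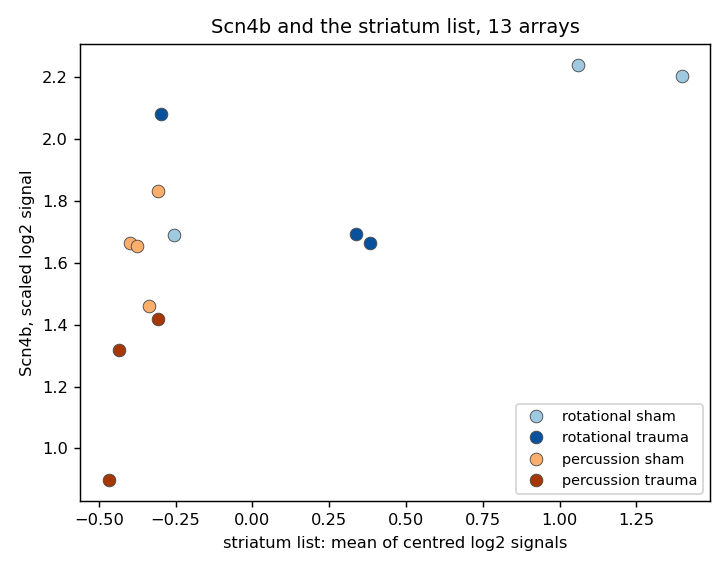
Scaled log2 signal of Scn4b (vertical) against the mean centred log2 signal of 8 striatal markers (horizontal), 1 point an array. Rotational sham arrays 1 and 3 lie far to the right, at 1.40 and 1.06, and the percussion trauma arrays lie lowest.

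Among the calcium channel pores, Cacna1d (Cav1.3, an L-type pore that opens at relatively negative potentials) had the second-smallest rotational p. It read -4.40, -4.58 and -4.65 on rotational sham and -4.91, -4.72 and -4.96 on rotational trauma arrays. On percussion sham arrays it read -3.99, -4.36, -4.55 and -4.35, and on percussion trauma arrays -4.23, -4.25 and -4.32. The rotational groups were separate and the percussion trauma arrays lay within their sham. The log2 difference was -0.32 (SE 0.13, limma adjusted p = 0.639) after rotational and 0.04 (SE 0.12) after percussion trauma, and the difference between the models did not pass (limma adjusted p = 0.564).

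Cacna1s, the L-type pore of skeletal muscle, had the largest difference between the models among the Cav1 pores, 0.55 (SE 0.26, limma adjusted p = 0.553). It read -3.12, -3.22 and -3.03 on rotational sham and -2.92, -2.80 and -3.07 on rotational trauma arrays. On percussion sham arrays it spread widely, at -1.83, -2.21, -2.59 and -2.75, while percussion trauma arrays read -2.67, -2.70 and -2.74. Both pairs of groups overlapped. Its probe has no rn4 position in the files. Of 6 muscle markers, 4 were kept, and their differences after rotational and percussion trauma were -0.36 (SE 0.25) and 0.12 (SE 0.23) for Acta1, -0.18 (SE 0.10) and -0.01 (SE 0.10) for Mylpf, 0.29 (SE 0.29) and 0.66 (SE 0.27) for Des, and 0.20 (SE 0.19) and 0.53 (SE 0.17) for Myh11. Their part in the Cacna1s values was not tested. Cacna1c (Cav1.2, the main L-type pore of cortical neurons and vessels) differed by -0.06 (SE 0.10) and -0.01 (SE 0.10). Cacna1f, a retinal L-type pore, had no kept probe.

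The presynaptic Cav2 pores are Cacna1a (P/Q type), Cacna1b (N type) and Cacna1e (R type). Cacna1b read 1.07, 1.09 and 1.01 on rotational sham and 0.88, 1.07 and 0.89 on rotational trauma arrays. In the percussion model it read 1.02, 1.10, 1.19 and 1.02 in sham and 0.82, 0.97 and 1.00 in trauma. The percussion groups were separate by a gap far smaller than the spread within each, and the rotational groups overlapped in a single trauma array. The log2 differences were -0.11 (SE 0.08) and -0.15 (SE 0.07), and the mean of both was -0.13 (SE 0.05, limma adjusted p = 0.502). Cacna1a differed by 0.04 (SE 0.12) and 0.08 (SE 0.11), and Cacna1e by -0.28 (SE 0.31) and 0.21 (SE 0.29). Another kept probe of Cacna1a differed by -0.30 after rotational and 0.11 after percussion trauma, and its rotational groups were separate.

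On their brightest probes all 3 Cav3 (T-type) pores, which open near rest and support burst firing, had lower means after rotational and higher means after percussion trauma. Of all genes 35.2% had these signs. Cacna1i (Cav3.3) read -0.49, -0.50 and -0.51 on rotational sham and -0.50, -0.59 and -0.64 on rotational trauma arrays. The percussion arrays gave -0.91, -0.75, -0.83 and -0.72 in sham and -0.52, -0.63 and -0.79 in trauma. On this probe the rotational sham arrays were nearly identical, and both pairs of groups overlapped. The log2 differences of -0.07 (SE 0.08) and 0.16 (SE 0.07) gave a difference between models of -0.23 (SE 0.11, limma adjusted p = 0.550). On the other kept probe of Cacna1i the rotational groups were separate. Cacna1h (Cav3.2) differed by -0.47 (SE 0.48) and 0.51 (SE 0.45), with single arrays far from the rest: 0.17 on rotational sham array 2 and 0.23 on percussion trauma array 3, against -1.66 to -0.32 on the other 11 arrays. Cacna1g (Cav3.1) differed by -0.03 (SE 0.16) and 0.07 (SE 0.15), and on its other kept probe by 0.07 and 0.14.

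On their brightest probes, 4 of 4 intracellular calcium channel beta subunits had lower means after rotational trauma (61.9% of all genes did). After percussion trauma 3 of 4 did (43.1% of all genes), and none passed the test in either model. Cacnb3, a beta subunit common in brain, read 4.17, 4.23 and 4.17 on rotational sham and 4.10, 4.25 and 4.17 on rotational trauma arrays. On percussion sham arrays it read 4.49, 4.41, 4.19 and 4.46, and on percussion trauma arrays 4.28, 4.06 and 4.12. A single low sham array made the percussion groups overlap. The log2 difference was -0.23 (SE 0.08, limma adjusted p = 0.330) after percussion and -0.02 (SE 0.09) after rotational trauma. Cacnb1 differed by -0.09 (SE 0.07) and -0.10 (SE 0.06), Cacnb2 by -0.14 (SE 0.28) and 0.02 (SE 0.26), and Cacnb4 by -0.16 (SE 0.15) and -0.07 (SE 0.14). Other kept probes changed some signs. That of Cacnb1 differed by -0.22 after rotational and 0.04 after percussion trauma, and that of Cacnb4 by 0.02 and -0.07.

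Of the alpha2delta subunits, Cacna2d1 had the narrowest intervals. Cacna2d1, a gabapentin-binding subunit, differed by 0.01 (SE 0.08) after rotational and -0.01 (SE 0.07) after percussion trauma, with a rotational 95% interval from -0.16 to 0.19. Cacna2d3 differed by -0.21 (SE 0.16, 95% interval -0.57 to 0.15) and 0.07 (SE 0.15). Cacna2d2 was above background on 0 of 4 percussion sham arrays, so no percussion fold is given. Its rotational difference was -0.07 (SE 0.18), and Cacna2d4 had no kept probe.

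All 6 kept gamma subunits had lower means after rotational trauma (61.9% of all genes did), and 4 of 6 after percussion trauma (43.1%). None of the 6 passed the test. Of these, Cacng6 was above background on 3 of 3 rotational sham but only 1 of 3 rotational trauma arrays. Cacng2 (stargazin), which carries AMPA receptors to the synapse, read 3.16, 3.42 and 3.28 on rotational sham and 3.27, 3.29 and 3.04 on rotational trauma arrays. In the percussion model it read 3.35, 3.38, 3.28 and 3.35 in sham and 3.10, 3.03 and 3.22 in trauma. The percussion groups were separate and the rotational groups overlapped. The log2 differences were -0.22 (SE 0.08, limma adjusted p = 0.351) after percussion and -0.09 (SE 0.09) after rotational trauma, and the mean of both was -0.16 (SE 0.06, limma adjusted p = 0.492).

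Cacng3 and Cacng4 are also AMPA receptor auxiliary subunits. Cacng3 read 0.95, 1.06 and 0.91 on rotational sham and 0.85, 0.90 and 0.76 on rotational trauma arrays, a separation with almost no gap. In the percussion model it read 0.64, 0.71, 0.77 and 0.89 in sham and 0.35, 0.84 and 0.46 in trauma, with 1 trauma array inside the sham range. Cacng4 read -3.89, -3.92 and -3.96 on rotational sham and -4.24, -4.14 and -4.37 on rotational trauma arrays. The percussion arrays gave -4.66, -4.18, -4.63 and -4.24 in sham and -4.00, -4.68 and -4.07 in trauma, so those groups overlapped. The log2 differences of Cacng4 were -0.33 (SE 0.18, limma adjusted p = 0.781) and 0.18 (SE 0.17). Those of Cacng3 were -0.14 (SE 0.12) and -0.20 (SE 0.11). Cacng7 and Cacng8, the remaining AMPA receptor auxiliary subunits kept, differed by -0.15 (SE 0.16) and -0.03 (SE 0.12) after rotational trauma and by 0.23 (SE 0.15) and -0.05 (SE 0.11) after percussion trauma.

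**Figure D2:**
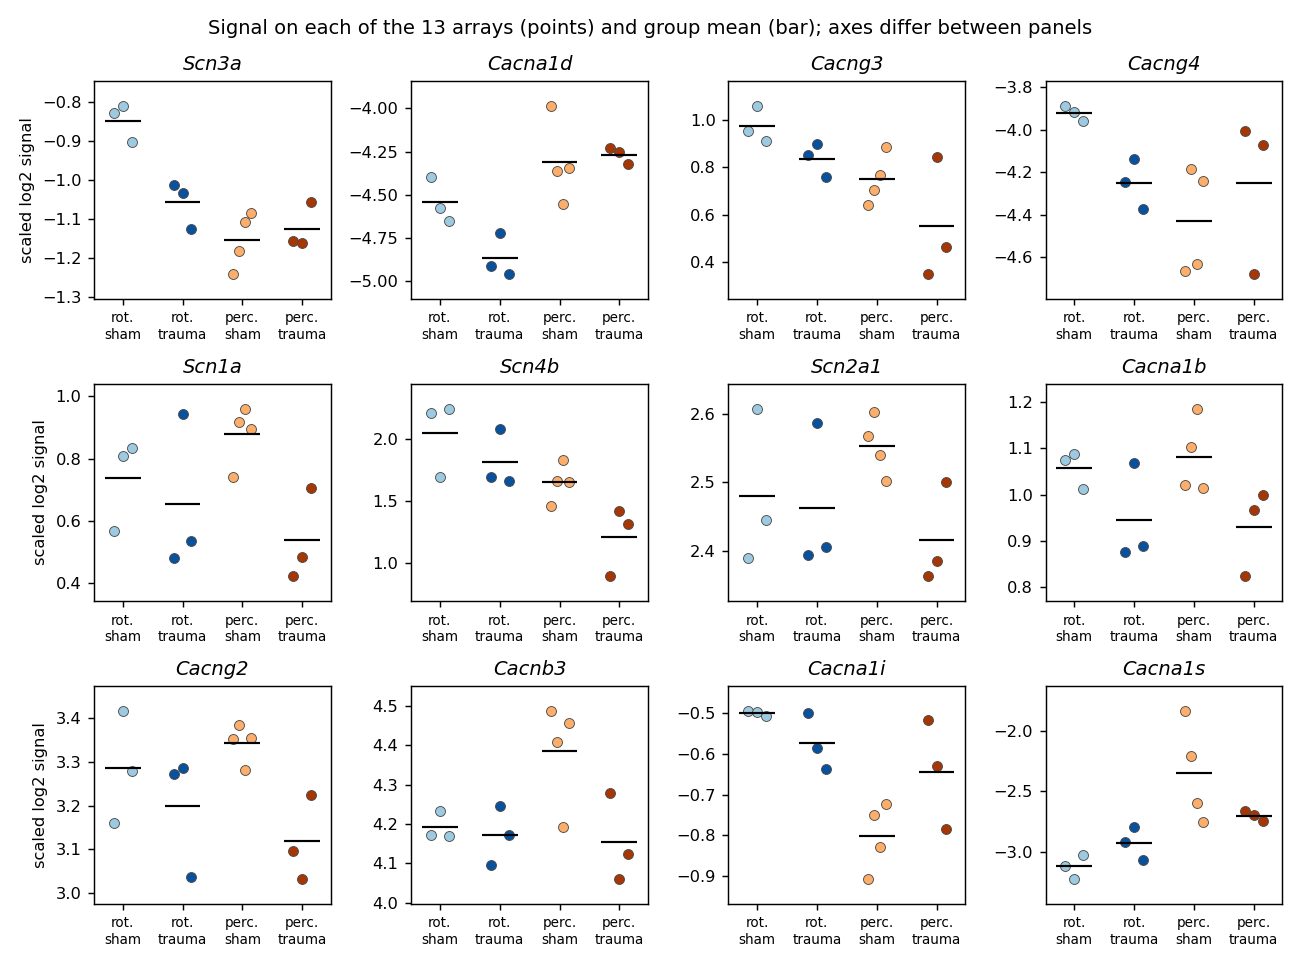
Scaled log2 signal of 12 channel genes on each of the 13 arrays (points) with the group mean (bar); the vertical axes differ between panels. The rotational groups do not overlap in Scn3a, Cacna1d, Cacng3 and Cacng4, and the percussion groups do not overlap in Scn1a, Scn4b, Scn2a1, Cacna1b and Cacng2.

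The HCN subunits Hcn2, Hcn3 and Hcn4 form pacemaker channels that differ in their response to cyclic AMP. After percussion trauma their means were higher, at 0.27 (SE 0.17), 0.17 (SE 0.11) and 0.18 (SE 0.11), none past the test. In the rotational model Hcn2 differed by 0.05 (SE 0.18), Hcn3 by -0.10 (SE 0.12) and Hcn4 by 0.11 (SE 0.12), with no shared direction. The smallest adjusted p of the 3 was 0.937 after rotational and 0.558 after percussion trauma (limma).

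In the percussion model 5 channel genes had every trauma array below every sham array (Scn1a, Scn2a1, Scn4b, Cacna1b and Cacng2), an order that 3.05% of all genes showed. No channel gene had the opposite order, which 6.93% of all genes had. No channel gene was separate in both models, where 0.203% of all genes lay below sham and 0.597% above sham in both, so a count of 0 among 36 says little. Separation in only a single model was not tested as such. The difference between the models compares mean effects, and 0 of 36 channel genes passed it, as did 0.0% of all genes (limma, smallest member adjusted p = 0.455). Its median standard error over the channel genes was 0.198, against 0.144 for the rotational and 0.135 for the percussion difference. At an unadjusted p under 0.05 the difference gave 1 channel gene, Scn3a, against 9.25% of all genes.

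The mean of both trauma effects likewise gave 0 of 36 called, with 0.0% of all genes called, and a smallest member adjusted p of 0.446 (Scn4b, limma). At an unadjusted p under 0.05 it gave 4 channel genes, Scn4b, Cacng2, Cacna1b and Scn1a, all lower, against 8.82% of all genes (598 lower and 924 higher). The brighter 18 and dimmer 18 channel genes differed in the percussion counts. Of the brighter 18, 13 had lower means (median -0.09), where 51.3% of all genes of that brightness were lower. Of the dimmer 18, 6 were lower (median 0.06), where 36.2% of all genes of that brightness were. After rotational trauma the counts were 16 and 12 of 18, beside 60.4% and 63.2% of all genes.

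By median size, the sham groups differed from each other more than trauma differed from sham. The median absolute log2 difference of the channel genes was 0.11 after rotational trauma, 0.14 after percussion trauma and 0.23 between percussion sham and rotational sham. Over all genes these medians were 0.09, 0.11 and 0.21. Slide and model cannot be told apart in the comparison of sham groups.

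Partner genes of the channels were read from lists, and 0 of them were called by limma in any of the 4 comparisons. Of all genes, 0.0116% were called in the rotational comparison and 0.0% in the others. Over all genes 61.9% of means were lower after rotational and 43.1% after percussion trauma. An unadjusted p under 0.05 was reached by 7.0% and 11.5% of all genes. These shares stand beside the list counts below. Of 23 sodium channel partners 21 were kept, with 18 lower means after rotational and 13 after percussion trauma, of which 2 and 1 had an unadjusted p under 0.05, while 1 higher mean did so after percussion trauma. Ank2, an ankyrin scaffold of axons, differed by -0.21 (SE 0.09) after rotational trauma, and Nrcam, an adhesion molecule of initial segments and nodes, by -0.23 (SE 0.10). Tnr, a matrix protein around nodes and perineuronal nets, differed by -0.23 (SE 0.07) after percussion trauma, while Sptan1, the axonal spectrin alpha chain, differed by 0.22 (SE 0.10). In the rotational model Sptan1 differed by -0.13 (SE 0.11).

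Calcium channel partners gave 21 kept of 26, with 14 lower means in each model. At an unadjusted p under 0.05, 2 were lower after rotational trauma, and 1 was lower and 1 higher after percussion trauma. Of all genes 7.0% passed that limit after rotational and 11.5% after percussion trauma. Rem2, a small GTPase that binds beta subunits, differed by -0.52 (SE 0.23) after rotational trauma, and Prkar2b, a regulatory subunit of protein kinase A, by -0.19 (SE 0.07). After percussion trauma Camk2g, a calmodulin-dependent kinase subunit, differed by -0.36 (SE 0.14) and Thbs2, a matrix ligand of alpha2delta, by 1.11 (SE 0.37). Thbs2 differed in the same direction after rotational trauma, by 0.84 (SE 0.40), as did the meningeal and matrix markers.

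All 12 HCN partners were kept, with 6 lower means after rotational and 5 after percussion trauma. At an unadjusted p under 0.05, 1 was lower after rotational trauma, and 3 were lower and 2 higher after percussion trauma. Of all genes 7.0% passed that limit after rotational and 11.5% after percussion trauma. After percussion trauma Flna, an actin-binding filamin, differed by 0.77 (SE 0.21) and Pde4b, a cyclic AMP phosphodiesterase, by -0.37 (SE 0.12). Caprin1, an RNA-binding protein, was separate in both models in opposite directions, at -0.16 (SE 0.06) after rotational and 0.11 (SE 0.05) after percussion trauma, and its difference between models had a limma adjusted p of 0.323. Adcy2, an adenylyl cyclase, differed by -0.14 (SE 0.09) after rotational trauma. Of 15 AMPA receptor and auxiliary genes 12 were kept, with 10 lower means after rotational and 6 after percussion trauma. At an unadjusted p under 0.05 there were 0 after rotational trauma, and 1 lower and 1 higher after percussion trauma. Gria1, an AMPA receptor subunit, differed by 0.22 (SE 0.08) after percussion trauma, where Shisa7, an auxiliary subunit, differed by -0.26 (SE 0.10). After rotational trauma Gria4, another AMPA receptor subunit, differed by -0.24 (SE 0.15) and Dlg4, the scaffold PSD-95, by -0.29 (SE 0.19). After percussion trauma Gria2 differed by -0.12 (SE 0.12), Gria3 by -0.10 (SE 0.07) and Gria4 by -0.07 (SE 0.14). These 3 had the sign of Cacng2 in that model, and Gria1 the opposite sign. Rbfox3, a nuclear marker of neurons, differed by -0.49 (SE 0.13) after percussion and 0.11 (SE 0.14) after rotational trauma. It had the smallest percussion p of the 10 neuronal markers. Of the 10, 6 had lower means after percussion trauma (median -0.05) and 5 after rotational trauma (median 0.01). The 4 with higher percussion means were Syt1 (0.06), Nefl (0.08), Map2 (0.01) and Tubb3 (0.01).

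Other kept probes of the same genes gave a check on single probes. For 9 genes another probe was kept, and its difference had the sign of the brightest probe in 5 of 9 genes after rotational and 4 of 9 after percussion trauma, signs of dim probes included. Cacna1b, 1 of the genes separate in the percussion model, had an other probe at 0.16 after percussion trauma against -0.15 for the brightest. Cacna1i's probes overlap on rn4, at chr7:118681461-118681520 and chr7:118681478-118681537, and gave -0.07 and -0.12 after rotational and 0.16 and 0.08 after percussion trauma. On its other probe every rotational trauma array (-1.08, -1.20 and -1.27) lay below every rotational sham array (-1.07, -1.07 and -1.05). The other probes of Cacna1a (-0.30) and Cacnb1 (-0.22) showed that order too, unlike their brightest probes. Those of Cacna1b, Cacna1c, Cacna1e, Cacna1g and Cacnb4 overlapped in the rotational model. The share of other probes over all genes with that order was not counted.

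Cacna1e showed the largest gap between probes. Its other probe, at chr13:69372626-69372685 on rn4, read -5.73, -5.60 and -6.07 on rotational sham and -5.70, -6.14 and -6.17 on rotational trauma arrays. On percussion sham arrays it read -2.20, -4.13, -3.78 and -3.54, and on percussion trauma arrays -3.17, -3.43 and -3.70. The percussion arrays were thus all far above the rotational arrays, sham included. Percussion sham exceeded rotational sham by 2.39 on this probe (5.23-fold) and by 0.26 on the brightest probe, at chr13:69367030-69367089. The other probe was above background on 3 of 3 rotational sham and 0 of 3 rotational trauma arrays. Animals, slide and model cannot be told apart for this gap. On the other probe percussion trauma differed from its sham by -0.02, and no rotational fold is given.

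**Figure D3:**
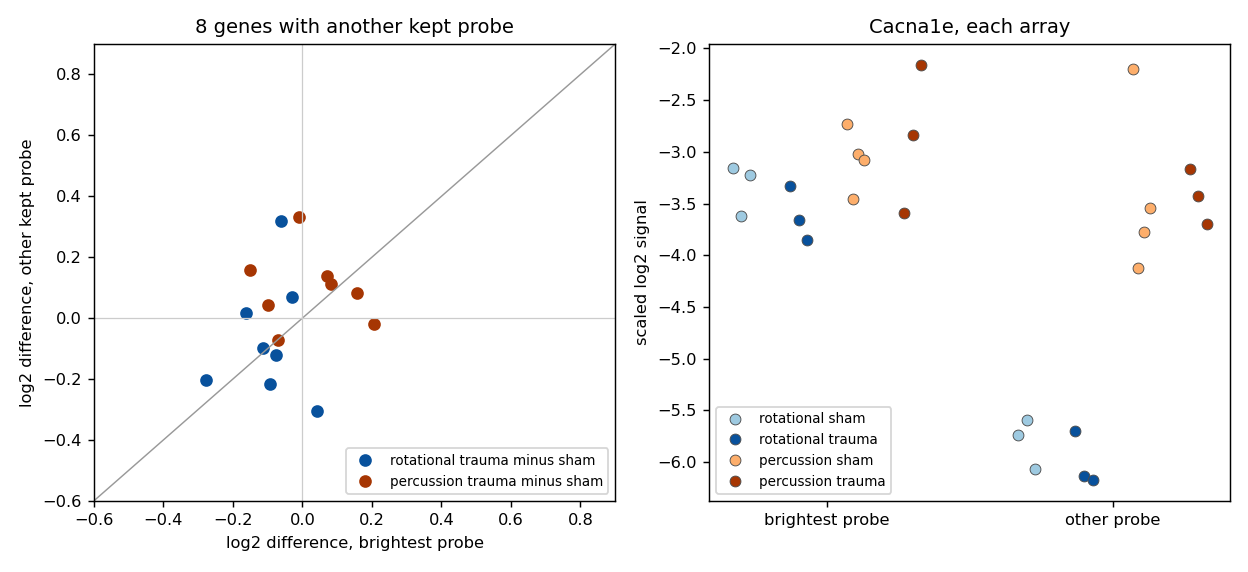
Left, trauma minus sham log2 difference of the other kept probe (vertical) against the brightest probe (horizontal) for 8 channel genes in both models, with the line of equality; the rotational value of the other Cacna1e probe comes from trauma arrays below background. Right, scaled log2 signal of both Cacna1e probes on each array; the other probe lies between -6.17 and -5.60 on rotational arrays and between -4.13 and -2.20 on percussion arrays.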

How the data were processed

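Total RNA of 13 samples was labelled with Cy3 and hybridised to 1-colour Agilent arrays, per the labels' protocols. The authors extracted spots with Agilent Feature Extraction 10.5.1.1, per the file headers, and the deposited files give each spot's background-subtracted intensity. A deposited log2 table, in which all 13 columns correlated best with their own array's scanner values and share a median of 8.154, served as an alternative. Its scale and centring steps are not given in the sources used here.

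Of 62976 spots per array, 4259 control spots and spots marked as outliers were left out, and 0 others were saturated. Log2 intensity minus the array's 75th percentile was averaged per probe (30367), kept if well above background on all arrays of a group (20005), and the brightest probe taken per gene (17251). These precision limits rest on 3 or 4 arrays a group. Group means were fitted to all 13 arrays with limma 3.58.1 in R 4.3.3 (9 residual and 2.22 prior degrees of freedom), two-sided, with Benjamini-Hochberg adjustment over all genes at 0.05, and was tested on simulated data. Intervals are 95%. Python 3.11.15 drew the figures.

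Values on every array are given for members among the 4 of smallest p in any comparison (10 genes). Cacng3, Scn2a1 and the doubled probes were added after their values were seen, as were the remaining interneuron, neuronal and Gria genes named. Of the partner and marker lists, genes separate in both models and the 2 of smallest p per list and model could be named. Members and lists were chosen with earlier results of these data known. Of 44 members, 41 matched RefSeq (GRCr8, names only) by accession, which changed 1 symbol. Probe positions are the files' own, on rn4. Values of 3 channel genes are not reported here, though counts over the list include them.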

Additional observations from a re-analysis of the deposited data

How the results depend on the processing

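The call of 0 channel genes held under every alternative run, in each of the 4 comparisons: normexp background correction, quantile normalization, the authors' deposited log2 table, no filter on dim probes, a filter on all arrays, the mean of a gene's probes, an intensity trend with robust prior, slide row as covariate, the arrays of a single model (its own comparison only), and each array left out. The smallest adjusted p of a channel gene over these (limma) was 0.140 rotational, 0.103 percussion, 0.0854 for the mean and 0.103 for the difference. The differences by which genes were named, 4 per comparison, kept their sign in all of them. In size, 4 moved by over 1.5 times: Cacna1b from -0.13 to -0.05 (mean of both models, with the mean of its probes) and from -0.11 to -0.17 (rotational, without rotational trauma array 2), Cacna1i from -0.23 to -0.12 (difference, normexp) and Scn4b from -0.44 to -0.28 (percussion, without percussion trauma array 1).

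Channel genes separate after rotational trauma numbered 4 (15.8% of all genes were separate in either direction). The count was 3 with normexp or quantile normalization (15.3% and 16.0% of all genes) and 7 with the mean of a gene's probes (16.2%). With an array left out it ran from 4 to 12: 12 without rotational trauma array 2 (33.4% of all genes), 11 without trauma array 1 (28.6%), and 8 without sham array 2 (24.4%), sham array 3 (20.6%) or trauma array 3 (23.3%). The percussion count, 5 (9.98% of all genes), was 4 with normexp (12.3%) or the mean of probes (9.94%), and 5 to 9 with an array left out, with 9 without percussion trauma array 1 (17.5%) or array 2 (16.1%). Fewer arrays separate more easily by construction. Leaving out percussion trauma array 3 raised the unadjusted percussion count from 4 to 8 channel genes and the calls over all genes from 0 to 92; the cause was not tested.

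The deviations of same-numbered trauma and sham arrays from their group means were correlated over genes. These correlations were 0.109, 0.265 and 0.0204 in the rotational and 0.282, -0.0231 and -0.00624 in the percussion model. Differently numbered arrays were not compared, so whether replicate numbers pair the arrays was not settled. With the replicate block 0 channel genes were called in any comparison, and calls over all genes went from 2 to 0 (rotational) and from 0 to 28 (mean). Without the filter on dim probes 26269 genes were tested and 334 rotational, 2893 percussion and 3764 difference calls appeared over all genes, 0 of them channel genes; the cause was not tested.

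Precision was limited by the number of arrays, and Scn11a, Cacna2d2, Cacng6 and the other probe of Cacna1e by signals near background.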
